A study of Mus musculus with 12 samples.

Results

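T cells and cytotoxic lymphocytes of the gut were followed here through 33 genes, which encode the T cell receptor complex and its coreceptors, the signalling proteins beneath the receptor, adhesion and costimulatory receptors, lineage transcription factors, cytokine receptors and the cytotoxic machinery. The genes came from a fixed list of symbols. A gene was measured where a transcript cluster of the array carried exactly that symbol and no other, and the cluster with the highest mean was taken where there were several. This gave values for 30 of the 33 genes, among 18820 genes in all. No cluster used here was named *Lck*, the kinase that starts receptor signalling, or *Tcf7*, a transcription factor of naive T cells, and the clusters of *Foxp3*, the factor of regulatory T cells, carried several symbols, so these 3 genes have no value.

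In the small intestine, T cells occupy distinct sites. Conventional T cells, among them follicular helper cells that instruct B cells, lie in and around the B cell follicles of Peyer's patches, the lymphoid organs of the gut wall. Intraepithelial lymphocytes sit between the enterocytes, are rich in CD8-positive and cytotoxic cells, and in mice include many that carry CD8 as a pair of alpha chains and lack CD2, CD5 and CD28. Further T cells, natural killer cells and innate lymphoid cells are found in the lamina propria. A T cell senses antigen through its receptor chains, and the CD3 proteins and CD247 carry the signal inwards to the kinase ZAP70 and the adaptor LAT.

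RNA was taken from the ileum with a Peyer's patch and its surrounding mucosa, and from the hippocampus, of 6-week-old mice of mixed C57BL/6J/CBA strain, perfused with saline, and was hybridised to 12 Mouse Gene ST arrays. The ileum arrays F09 (female), G09 (male) and H09 (female) came from *Csf1r*ΔFIRE/ΔFIRE mice (FIRE -/- in the labels, KO below), which lack FIRE, an intronic enhancer of the gene for the macrophage growth factor receptor CSF1R, on both alleles and descend from 1 male founder, and C09 (male), D09 (male) and E09 (female) came from *Csf1r*+/+ mice (FIRE +/+, WT below). In the hippocampus the KO arrays were A09 (male), B09 (labelled female) and H07 (female) and the WT arrays E07 (male), F07 (male) and G07 (female). Values are the log2 signals that the authors computed by robust multi-array averaging (RMA), and genotypes and tissues were compared with limma over 21218 clusters with a single symbol, where a call needs a Benjamini-Hochberg adjusted p under 0.05.

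Over all clusters, any 2 ileum arrays correlated at between 0.981 and 0.992 (Pearson), and the sex-linked genes *Xist* and *Eif2s3y* matched the labels of all 6. On the hippocampus array B09, labelled female, they read as on the male arrays. The ileum arrays differed widely in B cell genes. *Ms4a1*, the gene of the B cell antigen CD20, read 7.68, 2.32 and 2.14 on the KO arrays F09, G09 and H09, against 2.68, 7.66 and 2.50 on the WT arrays C09, D09 and E09. On the 4 arrays where it was low it was close to the 1.85 to 2.26 of the hippocampus. The mean over 10 B cell genes was 7.53 on F09 and 7.47 on D09, and between 3.49 and 3.98 on the other 4 arrays. Since this is bulk tissue, fewer cells of a type and less RNA per cell cannot be told apart.

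Members were therefore read against *Ms4a1*. The gap of a gene is the lower of its values on D09 and F09 minus the highest of its values on the other 4 ileum arrays, in log2 units. A gene with a gap of at least 0.5 is said to follow *Ms4a1*, one with a gap of 0 or less not to follow it, and the rest lie between. This is a description of 6 arrays, in which D09 and F09 form a cluster of their own, and no correlation or test was computed from it. Of the 30 members, 11 followed *Ms4a1*, where 1.26% of all clusters did, 10 lay between, where 5.42% of all clusters did, and 9 did not follow, as did 93.3% of all clusters. At the edge of the rule, *Icos* lay just inside with a gap of 0.55 and *Il7r* just outside with 0.40. Several classes rested on 1 array. Leaving out an array can only widen a gap, and without G09 there were 15 followers, where 1.62% of all clusters followed. The 4 added were *Cd4* (gap 1.19), *Il7r* (0.96), *Zap70* (0.67) and *Cd8a* (0.52). The 11 followers held 3 of the 4 measured genes of the receptor complex, 1 of 3 coreceptors, 2 of 5 signalling genes, 4 of 6 adhesion and costimulatory receptors and 1 of 3 transcription factors. All 7 cytotoxic and effector genes were in the group that did not follow, with *Gata3* and *Ctla4*. Without G09, *Nkg7* (0.42), *Ccl5* (0.36) and *Gata3* (0.15) lay between, without F09 *Nkg7*, *Cxcr6* and *Prf1* lay between, and without D09 *Klrd1* and *Ctla4* followed. *Gzma* and *Gzmb* did not follow with any 1 of the 6 arrays left out.

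**Figure D1:**
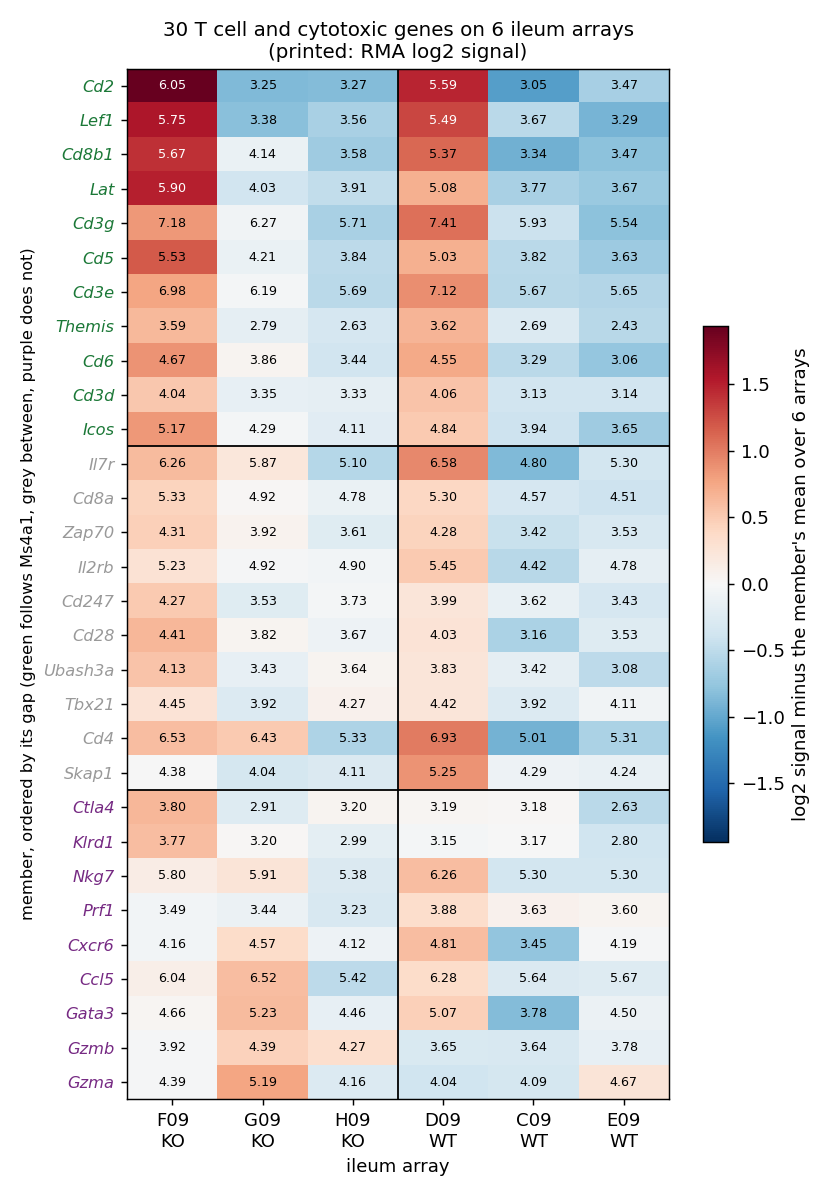
RMA log2 signal of the 30 measured members (rows, ordered by gap) on the 6 ileum arrays (columns, the 3 KO arrays left of the 3 WT arrays). Colour shows the difference from the member's mean over the 6 arrays in log2 units, and the printed numbers are the signals. By the rule the upper 11 rows have their 2 highest values on F09 and D09, while the lowest rows, *Gzmb* and *Gzma*, are highest on G09.

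The receptor complex varied with *Ms4a1*, from different floors. *Cd3e*, the epsilon chain of CD3, read 6.98, 6.19 and 5.69 on F09, G09 and H09 (KO), against 5.67, 7.12 and 5.65 on C09, D09 and E09 (WT), a gap of 0.80. *Cd3g*, the gamma chain, read 7.18, 6.27 and 5.71 on the KO arrays, against 5.93, 7.41 and 5.54 on the WT arrays, a gap of 0.91. Both kept a high signal on the 4 arrays with little *Ms4a1*, where the lowest value lay 1.97 (*Cd3e*) and 2.61 (*Cd3g*) above the highest value of the gene on any hippocampus array. *Cd3d*, the delta chain, read 4.04, 3.35 and 3.33 in KO and 3.13, 4.06 and 3.14 in WT ileum, a gap of 0.69. Its values on the 4 low arrays overlapped with the 2.77 to 3.18 of the hippocampus. *Cd247*, the zeta chain that carries the signal of both the T cell receptor and receptors of natural killer cells, lay between, with 4.27, 3.53 and 3.73 in KO, 3.62, 3.99 and 3.43 in WT and a gap of 0.26. All 4 genes were highest on D09 or F09.

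The coreceptors parted from each other. *Cd8b1*, the beta chain of CD8, which the alpha-alpha form lacks, read 5.67, 4.14 and 3.58 on F09, G09 and H09, against 3.34, 5.37 and 3.47 on C09, D09 and E09, a gap of 1.24. Outside D09 and F09 only G09 stood above the 3.26 to 3.60 of the hippocampus. *Cd8a*, the alpha chain shared by both forms of CD8, lay between, at 5.33, 4.92 and 4.78 in KO and 4.57, 5.30 and 4.51 in WT, a gap of 0.38. Its lowest ileum value was 0.77 above its highest hippocampus value, so its signal was present on every ileum array and varied less between them than that of *Cd8b1*. *Cd4*, the coreceptor of helper and regulatory T cells, which some intestinal macrophages carry too, read 6.53, 6.43 and 5.33 in KO, against 5.01, 6.93 and 5.31 in WT. Its small gap of 0.09 came from G09 alone, since within WT D09 exceeded the other arrays by 1.62 and within KO F09 exceeded G09 by 0.09. The mean of 11 macrophage genes was 6.93 on G09 and between 6.12 and 6.87 on the other 5 ileum arrays; its part in the *Cd4* signal was not tested.

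The adhesion and costimulatory receptors ran from the widest gap of all members to a gap just under 0. *Cd2*, an adhesion receptor of T cells that mouse B cells carry too, read 6.05, 3.25 and 3.27 in KO, against 3.05, 5.59 and 3.47 in WT, a gap of 2.13. On the low arrays it came close to the hippocampus, where the highest value was 3.22, but only C09 lay below that value. *Cd5*, a brake on receptor signalling, had a gap of 0.81, with 5.53, 4.21 and 3.84 in KO and 3.82, 5.03 and 3.63 in WT. The related *Cd6* had a gap of 0.69, with 4.67, 3.86 and 3.44 in KO and 3.29, 4.55 and 3.06 in WT. Neither was clear of the hippocampus on all of the low arrays, whereas *Icos*, the costimulatory receptor of follicular helper T cells, was. *Icos* read 5.17, 4.29 and 4.11 in KO and 3.94, 4.84 and 3.65 in WT, with 3.40 as the highest hippocampus value. *Cd28*, the main costimulatory receptor of naive T cells, lay between with a gap of 0.21, at 4.41, 3.82 and 3.67 in KO and 3.16, 4.03 and 3.53 in WT. *Ctla4*, an inhibitory receptor of activated and regulatory T cells, stood out on F09 alone, at 3.80, 2.91 and 3.20 in KO and 3.18, 3.19 and 2.63 in WT.

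Among the transcription factors, *Lef1*, which acts in Wnt signalling and marks naive T cells, read 5.75, 3.38 and 3.56 in KO ileum, against 3.67, 5.49 and 3.29 in WT ileum, a gap of 1.82. Its hippocampus signal, 5.61 to 5.84, was as high as that on D09 and F09. *Tbx21*, which encodes T-bet of type 1 and cytotoxic lymphocytes, lay between, at 4.45, 3.92 and 4.27 in KO and 3.92, 4.42 and 4.11 in WT. *Gata3*, the factor of type 2 helper T cells and innate lymphoid cells, was highest on G09, at 4.66, 5.23 and 4.46 in KO and 3.78, 5.07 and 4.50 in WT, with a gap of -0.58.

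Of the 5 signalling genes, 2 followed and 3 lay between. *Lat*, the adaptor that ZAP70 phosphorylates, read 5.90, 4.03 and 3.91 in KO, against 3.77, 5.08 and 3.67 in WT, a gap of 1.05, and stayed above the hippocampus on every ileum array. *Themis*, needed for thymocyte selection, read 3.59, 2.79 and 2.63 in KO and 2.69, 3.62 and 2.43 in WT, a gap of 0.80. *Zap70* lay between, at 4.31, 3.92 and 3.61 in KO and 3.42, 4.28 and 3.53 in WT, and its hippocampus values of 3.82 to 4.25 overlapped with both sets of ileum arrays. *Skap1*, an adaptor that links the receptor to integrins, reached 5.25 on D09 and lay between 4.04 and 4.38 on the other 5 ileum arrays. *Ubash3a*, a suppressor of receptor signalling, ranged from 3.08 to 4.13 in the ileum and from 3.55 to 3.97 in the hippocampus. The cytokine receptors lay between as well. *Il7r*, the survival receptor of naive and memory T cells and of innate lymphoid cells, read 6.26, 5.87 and 5.10 in KO and 4.80, 6.58 and 5.30 in WT. *Il2rb*, a receptor chain for IL-2 and IL-15, read 5.23, 4.92 and 4.90 in KO and 4.42, 5.45 and 4.78 in WT, and its lowest ileum value was 1.13 above its highest hippocampus value.

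The 7 cytotoxic and effector genes did not share 1 order of arrays. *Gzma*, *Gzmb* and *Ccl5* were highest on G09, *Nkg7*, *Cxcr6* and *Prf1* on D09, and *Klrd1* on F09. *Gzma*, which encodes the protease granzyme A, read 4.39, 5.19 and 4.16 on F09, G09 and H09, against 4.09, 4.04 and 4.67 on C09, D09 and E09. D09, high in *Ms4a1*, had the lowest value and the gap of -1.15 was the lowest of the 30 members. *Gzmb*, which encodes granzyme B, read 3.92, 4.39 and 4.27 in KO and 3.64, 3.65 and 3.78 in WT, a gap of -0.74. *Ccl5*, a chemokine stored by cytotoxic T cells, read 6.04, 6.52 and 5.42 in KO and 5.64, 6.28 and 5.67 in WT. *Cxcr6*, a receptor of tissue-resident lymphocytes, read 4.16, 4.57 and 4.12 in KO and 3.45, 4.81 and 4.19 in WT. *Nkg7*, a protein of cytotoxic granules, read 5.80, 5.91 and 5.38 in KO and 5.30, 6.26 and 5.30 in WT. In WT ileum, *Ccl5*, *Cxcr6* and *Nkg7* were highest on D09 by 0.61, 0.62 and 0.96, while in KO ileum F09 lay below G09 by 0.48, 0.41 and 0.11, so that the 2 arrays high in *Ms4a1* did not behave alike for these genes. *Prf1*, which encodes the pore-forming protein perforin, read 3.49, 3.44 and 3.23 in KO and 3.63, 3.88 and 3.60 in WT. *Klrd1*, which encodes the natural killer receptor CD94, read 3.77, 3.20 and 2.99 in KO and 3.17, 3.15 and 2.80 in WT.

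**Figure D2:**
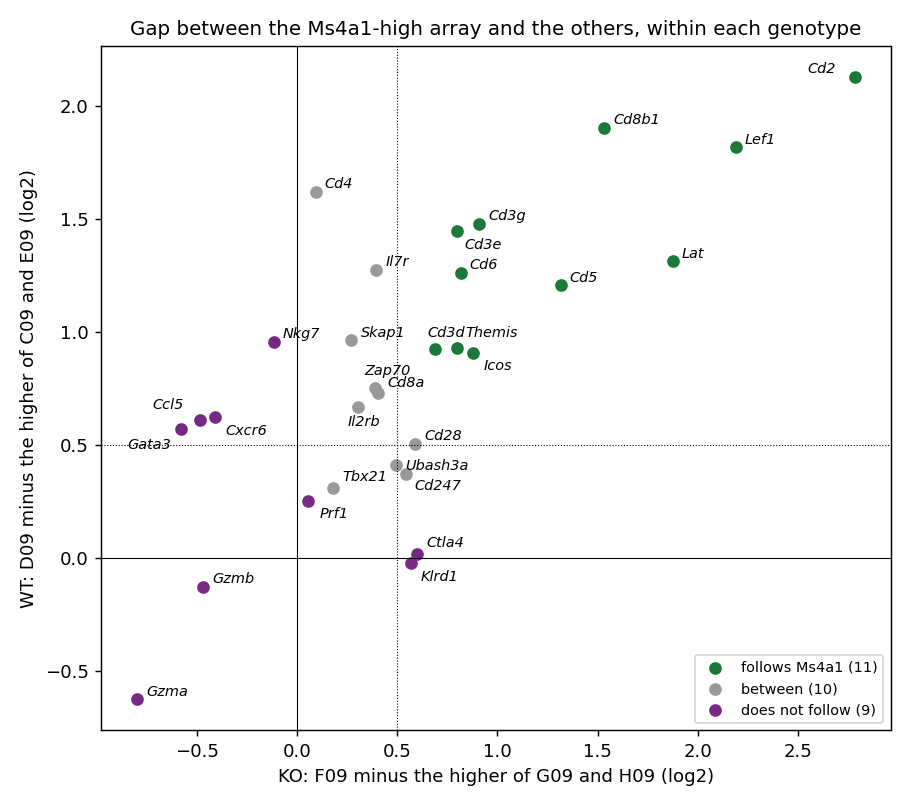
Gap of the 30 members within KO ileum (horizontal axis, F09 minus the higher of G09 and H09, log2) against that within WT ileum (vertical axis, D09 minus the higher of C09 and E09, log2), with dotted lines at 0.5. By the rule the 11 followers must lie beyond 0.5 on both axes, with *Cd2* at 2.78 in KO and 2.13 in WT, and *Gzma* and *Gzmb* lie below 0 in both.

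A gap can also be taken within 1 genotype, from its array high in *Ms4a1* and its other 2 arrays. The rule itself makes every follower reach 0.5 within both genotypes, so this is no further evidence for the followers. *Cd28*, with 0.59 in KO and 0.50 in WT, was the only other member to reach 0.5 in both. Among the 9 that did not follow, 2 reached 0.5 within KO ileum (*Ctla4* and *Klrd1*) and 4 others within WT ileum (*Nkg7*, *Ccl5*, *Cxcr6* and *Gata3*). *Gzma* and *Gzmb* were the members with a gap below 0 in both genotypes. A threshold of 0 in place of 0.5 would count 21 followers and a threshold of 1 would count 4.

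Apart from D09 and F09, 1 array was high in many members. G09 had the highest value of the 4 arrays low in *Ms4a1* for 22 of 30 members, where it did for 24.8% of all clusters, and the highest of all 6 ileum arrays for 4, *Gzma*, *Gzmb*, *Ccl5* and *Gata3*, where it did for 15.3% of all clusters. These counts were made after the values had been seen. The mean of 8 dendritic cell genes was 4.91 on G09, against 4.38 on H09, 4.12 on C09 and 4.35 on E09. On D09 and F09 it was 5.12 and 4.59. The mean of 11 macrophage genes was highest on G09, at 6.93 against 6.87 on D09. Several of these genes peaked on other arrays, such as *Csf1r* on D09. The ileal bile acid genes were low on G09, with *Slc10a2*, the bile acid transporter, at 5.58 and *Fabp6*, the bile acid binding protein, at 9.26, while the other 5 ileum arrays read at least 8.18 and 10.9. The part of these differences in the members' values was not tested, and G09 is also the only male KO ileum array.

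The companion lists give the setting of the split. Of 21 other measured genes of T cell receptor signalling, 7 followed *Ms4a1*, 8 lay between and 6 did not follow. *Tespa1*, which couples the receptor to calcium release, had the widest gap at 1.77, followed by the adaptor gene *Grap2* at 1.63 and *Ptprc*, which encodes CD45 of all leukocytes, at 1.35. Of 13 measured genes of follicular helper T cells, 3 followed, namely *Cxcr5* (2.96), *Slamf6* (1.92) and *Btla* (1.76), all of which B cells express too, and 8 did not follow. Among the 8, *Il21* (1.82 to 2.33 in the ileum, 1.86 to 2.35 in the hippocampus) and *Il4* were not clear of the hippocampus. *Bcl6*, *Tox2* and *Cd200* were brighter in the hippocampus than in the ileum. Of 6 genes of naive T cell homing, 4 followed, led by the chemokine gene *Ccl19* (2.67) and its receptor gene *Ccr7* (2.56). None of 15 measured genes of intraepithelial lymphocytes followed or lay between, and *Itgae*, the integrin chain that binds epithelial cadherin, read 4.75, 5.25 and 4.37 in KO and 4.67, 5.18 and 4.96 in WT. Some of the 15 were not clear of the hippocampus. *Klre1* read 1.90 to 2.39 in the ileum and 1.84 to 1.97 in the hippocampus, and *Gzmc* 2.39 to 2.80 and 2.47 to 2.61. The brightest, *Tmigd1*, read 9.17 to 10.6 in the ileum, while the next, *Itga1*, read 8.39 at most. Which cells gave the *Tmigd1* signal was not tested, so its place among the 15 is not firm. Not following *Ms4a1* is no mark of intraepithelial lymphocytes, since 93.3% of all clusters did not follow. None of 12 enterocyte and epithelial genes, 11 macrophage genes or 6 smooth muscle genes followed either. Among 15 other genes of cytotoxic and natural killer cells, 1 followed, *Cst7*, a protease inhibitor gene (1.52), 3 lay between and 11 did not. Several of the 11 were not clear of the hippocampus, such as *Gzmk*, at 2.48 to 2.89 in the ileum and 2.53 to 3.01 in the hippocampus. *Txn1*, also among the 11, was bright in both tissues, at 12.1 to 12.4 and 11.6 to 11.8. The T cell receptor's own constant and segment genes, 17 symbols, had no cluster of their own and were not analysed here.

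Sequences upstream of the start sites of 6 members are given because the data part them. *Cd3d*, *Cd3g* and *Lat* followed *Ms4a1*, and *Gzma*, *Gzmb* and *Nkg7* did not follow it. The class of *Nkg7* was not firm, since its gap was -0.11 and it lay between without G09 (0.42) or without F09 (0.35). *Cd3d* and *Cd3g* are neighbours that are read in opposite directions, with start sites 1355 bases apart. Each sequence is the 250 bases before the RefSeq start site on the gene's own strand, in build GRCm38.p6. Capitals mark 3 strings in either direction. AGGAAG is 1 form of the core bound by ETS factors (the ETS core below). TGTGGT is the core bound by RUNX factors, and CTTTGA a core bound by TCF and LEF factors.
Cd3d (chr9:44981536-44981785, plus strand): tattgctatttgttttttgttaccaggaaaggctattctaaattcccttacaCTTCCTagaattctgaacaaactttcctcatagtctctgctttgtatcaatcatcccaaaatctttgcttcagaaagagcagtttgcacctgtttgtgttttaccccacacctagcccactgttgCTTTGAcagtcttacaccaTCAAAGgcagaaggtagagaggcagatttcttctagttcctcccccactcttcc
Cd3g (chr9:44980432-44980681, minus strand): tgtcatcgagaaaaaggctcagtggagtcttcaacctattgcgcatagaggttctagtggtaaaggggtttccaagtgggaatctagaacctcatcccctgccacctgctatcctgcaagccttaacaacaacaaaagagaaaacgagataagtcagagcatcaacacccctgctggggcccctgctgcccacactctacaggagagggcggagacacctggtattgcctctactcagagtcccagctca
Lat (chr7:126369569-126369818, minus strand): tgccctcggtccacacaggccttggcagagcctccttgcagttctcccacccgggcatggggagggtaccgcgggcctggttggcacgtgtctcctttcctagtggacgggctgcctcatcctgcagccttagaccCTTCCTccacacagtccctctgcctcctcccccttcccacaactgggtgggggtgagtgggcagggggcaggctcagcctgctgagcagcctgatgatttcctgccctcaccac
Gzma (chr13:113100982-113101231, minus strand): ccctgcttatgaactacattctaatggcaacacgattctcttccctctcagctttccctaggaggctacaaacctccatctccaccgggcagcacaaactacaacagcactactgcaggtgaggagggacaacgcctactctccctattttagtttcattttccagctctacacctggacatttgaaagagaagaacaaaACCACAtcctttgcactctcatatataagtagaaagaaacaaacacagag
Gzmb (chr14:56262335-56262584, minus strand): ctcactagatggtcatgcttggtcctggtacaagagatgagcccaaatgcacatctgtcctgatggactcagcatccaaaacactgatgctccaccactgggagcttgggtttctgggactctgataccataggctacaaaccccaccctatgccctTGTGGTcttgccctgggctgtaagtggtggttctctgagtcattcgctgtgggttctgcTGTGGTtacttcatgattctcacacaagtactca
Nkg7 (chr7:43436888-43437137, plus strand): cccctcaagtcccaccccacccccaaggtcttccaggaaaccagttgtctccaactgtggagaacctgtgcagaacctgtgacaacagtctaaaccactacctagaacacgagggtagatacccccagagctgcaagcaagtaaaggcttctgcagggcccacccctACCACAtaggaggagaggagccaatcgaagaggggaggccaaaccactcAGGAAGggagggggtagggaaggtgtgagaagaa

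In these windows the ETS core lay at 198 bases before the start of *Cd3d*, 114 before that of *Lat* and 34 before that of *Nkg7*. The RUNX core lay at 50 bases before the start of *Gzma*, 93 and 34 before that of *Gzmb* and 83 before that of *Nkg7*, and the TCF/LEF core at 73 and 54 before that of *Cd3d*. None of these 3 strings stood in the window of *Cd3g*, and other forms of the ETS core were not searched. Windows were at hand for 20 of the 30 members, 26 windows in all. The RUNX core was in 5 of 7 windows of members that did not follow *Ms4a1* (*Cxcr6*, *Gzma*, *Gzmb*, *Nkg7* and *Prf1*), in 0 of 11 windows of followers and in 1 of 8 of the members between (*Zap70*), against 14% of 32851 windows of all genes. The ETS core was in 3 of 7, 5 of 11 and 5 of 8 of these windows, against 29.5% of all windows, and the TCF/LEF core in 1 of 7, 2 of 11 and 1 of 8, against 13.8%. In all, 7 short motifs were searched on both strands, and these 3 were chosen for printing with their counts known. The others were CTTTGT (a further core of TCF and LEF factors), found in 3 of the 26 windows, GGTGTGA (T-box factors), found in 1, CAGCTG (an E-box), found in 2, and AGATAA (the core of GATA factors), found in 1. The classes behind these counts can change with 1 array, since *Nkg7*, *Cxcr6* and *Prf1* lay between without F09. A match is a string of letters and not a shown binding site.

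The study compared the ileum of the genotypes on these arrays. None of the 30 members rose or fell in KO ileum, and limma called 0% of all clusters higher and 0% lower. Tested cluster by cluster with no shared variance prior, 0 clusters passed after adjustment as well. At an unadjusted p under 0.05, 393 of the 21218 clusters lay higher and 327 lower, among them 2 of the 30 members. *Gzmb* averaged 4.19 ± 0.24 in KO and 3.69 ± 0.08 in WT ileum (SD, n = 3 each), a log2 fold change of 0.50 (95% confidence interval 0.16 to 0.84, limma adjusted p = 0.999). It was the only member whose 3 KO arrays all lay above the 3 WT arrays, which 3.52% of all clusters showed. *Prf1* averaged 3.39 ± 0.14 in KO and 3.71 ± 0.15 in WT ileum (SD, n = 3 each), a log2 fold change of -0.32 (95% confidence interval -0.62 to -0.01, limma adjusted p = 0.999). It was the only member whose KO arrays all lay below the WT arrays, which 4.52% of all clusters showed. With 1 of 30 members in each direction, the members were near these shares of all clusters. Both signals were dim, with *Gzmb* and *Prf1* each below the median of the array on every ileum array.

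The mean of 28 of 30 members was higher in KO ileum, where 47.1% of all clusters had a higher mean, and the 2 lower ones were *Skap1* and *Prf1*. The median log2 fold change of the members was 0.19, against -0.01 for all clusters. The members share their arrays and many of them the same cells, so that these 30 values are not independent. The median of the members' signals was 4.66, 4.09 and 4.01 on F09, G09 and H09 (KO), against 3.72, 4.93 and 3.66 on C09, D09 and E09 (WT). Within each genotype the array high in *Ms4a1* was therefore the highest, and H09 and G09 lay above C09 and E09. The median log2 fold change was 0.02 without F09 and 0.01 without C09, and it was 0.08 without E09, 0.23 without G09, 0.43 without H09 and 0.48 without D09. Without both D09 and F09 it was 0.29, and without G09 as well, a setting chosen after seeing the data that leaves 1 KO array, 0.17.

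**Figure D3:**
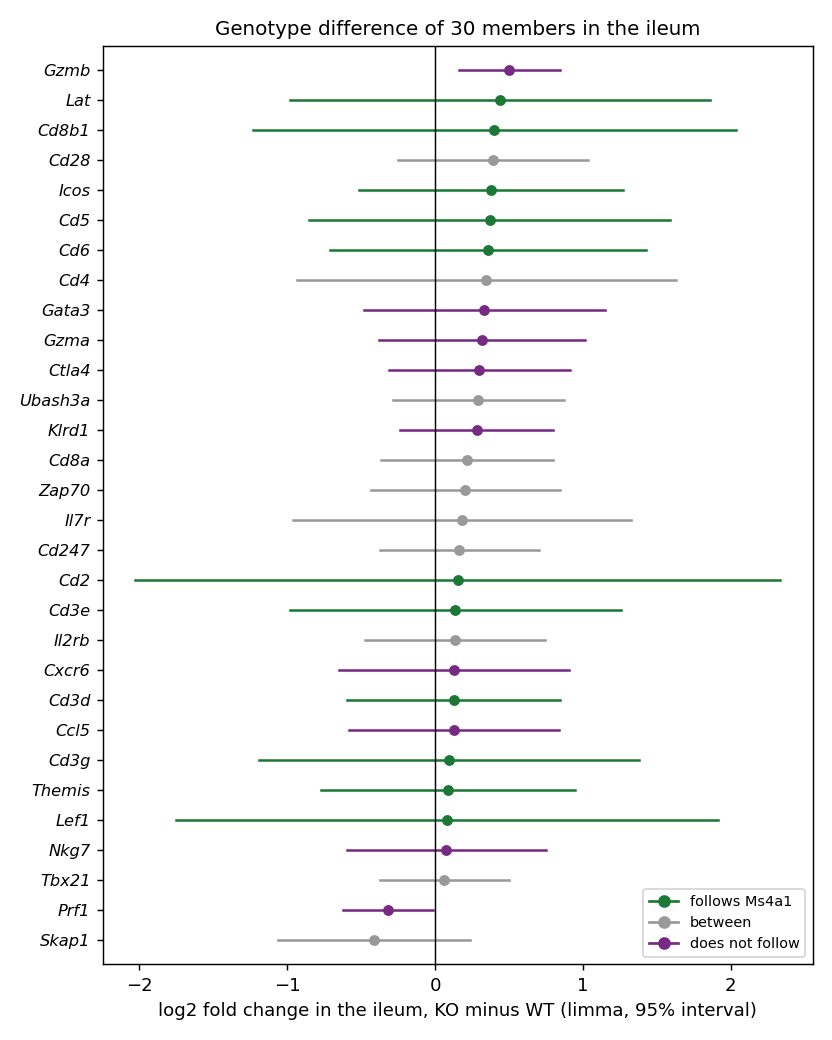
Log2 fold change of the 30 members in the ileum, KO minus WT (points), with the 95% confidence interval from limma (lines), coloured by whether the gene follows *Ms4a1*. The widest interval is that of *Cd2*, 2.18 to either side, and those of *Gzmb*, at 0.50, and *Prf1*, at -0.32, are the only intervals that leave out 0 before adjustment.

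The arrays could not resolve moderate differences in many members. The 95% interval reached 0.72 to either side of the fold change in the median member, from 0.30 for *Prf1* to 2.18 for *Cd2*. *Cd3e* differed by 0.14 on the log2 scale (95% confidence interval -0.98 to 1.25) and *Cd8b1* by 0.40 (-1.23 to 2.04), wide enough to hold a 2-fold difference in either direction for *Cd8b1*. Outside the followers *Cd4*, at 0.35 (-0.93 to 1.63), and *Il7r*, at 0.18 (-0.96 to 1.32), had wide intervals too. Closer bounds were found for *Tbx21* at 0.06 (-0.37 to 0.50), *Nkg7* at 0.08 (-0.60 to 0.75) and *Cd8a* at 0.22 (-0.37 to 0.80). With the *Ms4a1* level as a covariate no member passed the test, and *Cd3e* was at 0.19, *Lat* at 0.51 and *Gzmb* at 0.49. Without D09 and F09 *Cd4* was at 0.72 and *Gata3* at 0.71, and without G09 as well at 0.17 and 0.32. In that setting *Gzma* was at -0.22 and *Ccl5* at -0.24, where with all arrays they were at 0.32 and 0.13.

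The hippocampus shows how each probe set reads in a tissue with few T cells. In KO mice 20 of 30 members were higher in ileum than in hippocampus, as were 32.0% of all clusters, and 1 was lower, as were 29.7% of all clusters. In WT mice 14 of 30 were higher, as were 29.4% of all clusters, and 1 was lower, as were 27.1% of all clusters. The 14 called in WT were all called in KO, and *Cd3d*, *Cd247*, *Lat*, *Themis*, *Cd6* and *Gzmb* were called in KO only; this was not a test of the difference between genotypes. The gene that was lower in both was *Lef1*, with a log2 difference of -1.55 in KO (adjusted p = 0.0478) and -1.52 in WT (adjusted p = 0.0338). *Cd3g* had the largest difference, with 6.39 ± 0.74 in KO ileum, against 2.56 ± 0.25 in KO hippocampus (SD, n = 3 each, log2 difference 3.82, limma adjusted p = 3.6e-05). In WT mice it was 6.29 ± 0.98 in ileum and 2.86 ± 0.13 in hippocampus (SD, n = 3 each, log2 difference 3.44, adjusted p = 0.000221). *Cd3e* (2.86 in KO and 2.67 in WT), *Nkg7* (2.60 and 2.42), *Il7r* (2.51 and 2.05) and *Cd4* (2.47 and 2.29) came next.

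For several cytotoxic genes the difference between tissues had a smaller standard error than for *Cd2* and *Cd8b1*. *Cd8b1* came down to hippocampus levels on H09, C09 and E09, and *Cd2* on C09. *Cxcr6* differed by 1.84 in KO (standard error 0.13) and 1.55 in WT (standard error 0.31), *Gzma* by 1.88 (0.25) and 1.43 (0.21), and *Ccl5* by 1.93 (0.26) and 1.74 (0.21). *Cd2*, with log2 differences of 1.73 in KO (standard error 0.70) and 1.05 in WT (0.59), and *Cd8b1*, with 0.94 (0.47) and 0.72 (0.49), did not pass in either genotype. Some other followers had standard errors near those of the cytotoxic genes, such as *Cd3d* (0.21 in KO, 0.25 in WT) and *Icos* (0.26, 0.28). *Lat*, also a follower, had wider ones (0.49, 0.35). Among the 11 followers 7 were higher in KO and 3 in WT, and among the 9 members that did not follow 7 and 6. On 15 members every ileum array lay above every hippocampus array, as it did on 28.4% of all clusters. These were 4 of the 11 followers (*Cd3e*, *Cd3g*, *Lat* and *Icos*), 5 of the 10 members between and 6 of the 9 that did not follow. The gap rule requires high values on D09 and F09, which widens the spread of followers within each ileum group. Larger standard errors and lower shares among followers are therefore partly fixed by the rule. In WT mice, tissue and the ending of the array codes, whose meaning the labels do not state, cannot be told apart.

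**Figure D4:**
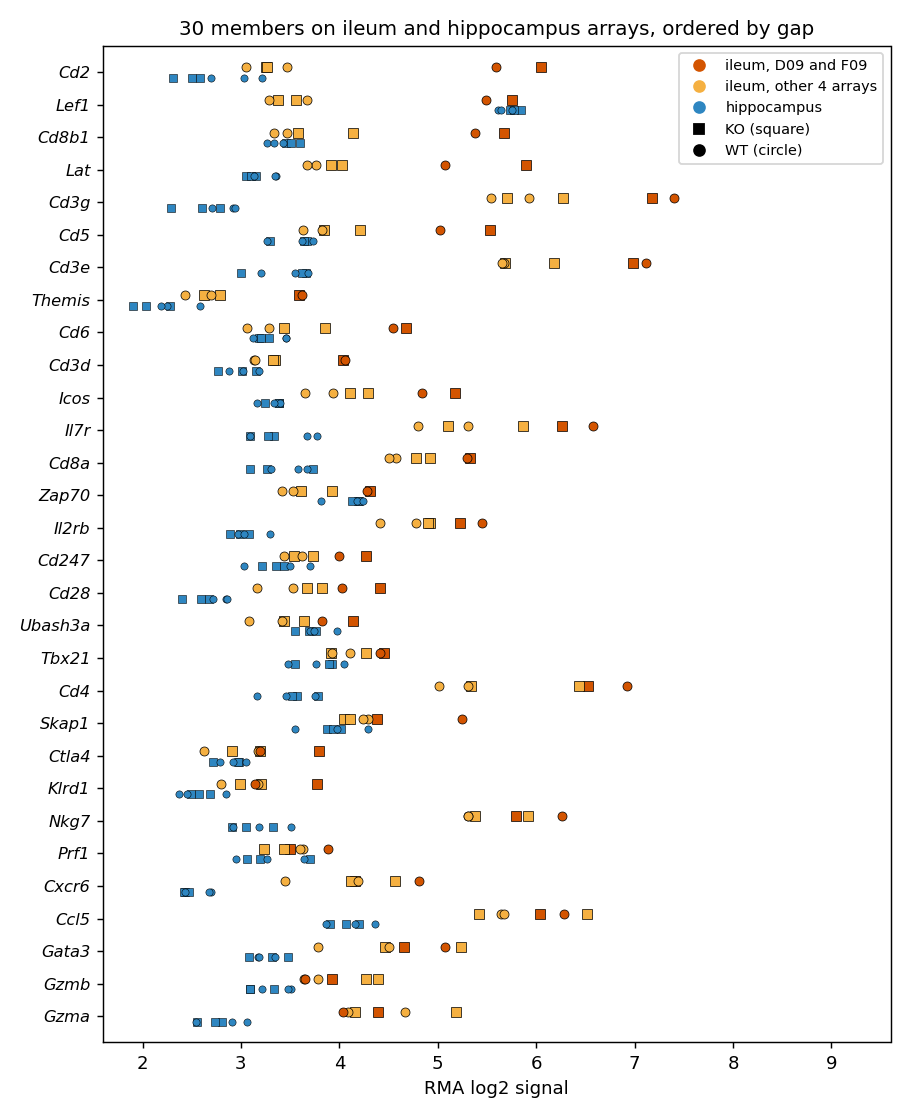
RMA log2 signal (horizontal axis) of the 30 members (rows, ordered by gap) on each array, with ileum points above hippocampus points, squares for KO and circles for WT. *Cd3e* and *Cd3g* stay to the right of the hippocampus on all 6 ileum arrays. *Cd8b1* reaches hippocampus levels on H09, C09 and E09, and *Cd2* on C09. *Lef1* lies at 5.61 to 5.84 in the hippocampus.

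Within the hippocampus no member rose or fell in KO mice, where 0% of all clusters rose and 0.448% fell. The endings of the array codes run largely with genotype here. E07, F07 and G07 are WT and A09 and B09 are KO, and only the KO array H07 shares the WT ending. Genotype and ending therefore cannot be fully told apart in the hippocampus, or in the test between tissues that uses it. *Cd2* read 2.50, 2.58 and 2.31 on A09, B09 and H07 (KO), against 3.03, 2.70 and 3.22 on E07, F07 and G07 (WT), a difference of -0.52 (limma, adjusted p = 0.564). *Cd28* had a log2 fold change of -0.25 (adjusted p = 0.992). These 2 had the lowest unadjusted p of the members in this fit, and neither passed the adjustment over all clusters. The median over the members was -0.07, against 0.01 for all clusters. Of the 21 other genes of T cell receptor signalling, 5 fell in KO hippocampus, namely *Fyb* (-1.24, adjusted p = 0.00709), *Lcp2* (-1.0, 0.00709), *Vav1* (-0.88, 0.00763), *Ptpn6* (-0.84, 0.0370) and *Ptprc* (-0.75, 0.0143). These signalling genes are shared with microglia and other myeloid cells. Of 11 macrophage genes 8 fell there, led by *Csf1r* at -4.63 (adjusted p = 8.77e-07), while in the ileum none of these genes passed the test.

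The genotype effect in the ileum minus that in the hippocampus was tested in a fit of all 12 arrays, which called 0.0895% of clusters higher and 0% lower, none of them a member. At an unadjusted p under 0.05 there were 894 of the 21218 clusters, and *Gzmb* was the only 1 of the 30 members among them. It read 3.09, 3.09 and 3.33 in KO hippocampus, against 3.51, 3.48 and 3.21 in WT hippocampus, and the effects differed by 0.73 (95% confidence interval 0.32 to 1.15, limma adjusted p = 0.665). With any 1 ileum array left out, the ileum difference of *Gzmb* lay between 0.40 and 0.64, and it was 0.56 without D09, F09 and G09. In none of these settings did it pass the adjustment over all clusters.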

How the data were processed

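The data come from 12 Affymetrix Mouse Gene ST arrays, 6 of ileum and 6 of hippocampus, with 3 KO and 3 WT mice for each tissue. The authors deposited 1 table of log2 values, computed from the array images by RMA. The sources used here name neither the RMA version nor a genome build. The table was used without further scaling or filter on signal. It has 35556 transcript clusters with signals between 0.50 and 12.99, and the medians of the arrays lie between 4.29 and 4.46. Symbols came from the platform annotation, and 1881 clusters with several symbols and 12457 unnamed clusters were left out, which leaves 21218. Precision is limited by the 3 arrays in each group. The labels do not say whether the same mice gave both tissues, so no mouse term was fitted, and p-values measure the spread between these samples.

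Comparisons were fitted with lmFit and eBayes of limma 3.58.1 (R 4.3.3), two-sided, without covariates. All 33 members are named, and from companion lists those past a threshold and those with the widest gaps or largest fold changes. The members and lists were chosen with earlier results of these data known. The code was tested on simulated data. Promoter windows were matched by symbol to RefSeq (GRCm38.p6). The alternatives were no moderation, another variance prior, all clusters or only bright ones, a further quantile normalization, weights for arrays, sex, the *Ms4a1* level, a shared fit, other gaps and leaving out arrays.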

Additional observations from a re-analysis of the deposited data

How the results depend on the processing

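In the ileum, no cluster and no member passed the test under any of the 11 other analysis settings or with any 1 array left out. The median log2 fold change of the members ranged from 0.01 to 0.48 with 1 array left out. The sign of an uncalled difference was not firm. With 1 ileum array left out, the log2 fold changes spanned -0.21 to 0.62 for *Cd3e*, -0.11 to 0.43 for *Cd3d*, -0.30 to 0.65 for *Cd3g*, -0.051 to 0.32 for *Cd247*, -0.20 to 1.06 for *Cd8b1*, -0.20 to 0.89 for *Lat*, -0.21 to 0.44 for *Themis*, -0.78 to 0.93 for *Cd2*, -0.13 to 0.80 for *Cd5*, -0.68 to 0.75 for *Lef1*, -0.056 to 0.21 for *Tbx21*, -0.20 to 0.69 for *Il7r*, -0.083 to 0.39 for *Nkg7*, -0.14 to 0.41 for *Ccl5*, -0.22 to 0.46 for *Cxcr6*, -0.021 to 0.94 for *Cd4*, -0.0045 to 0.64 for *Gata3* and -0.10 to 0.42 for *Il2rb*, and the other 12 members kept their sign. With sex as a covariate *Tbx21* was at -0.00084. *Lef1* was at -0.010 without D09 and F09, and *Cd3g* at -0.029, *Gzma* at -0.22 and *Ccl5* at -0.24 without G09 as well. The count of members that follow *Ms4a1* was 21 at a gap of 0, 4 at a gap of 1, 12 with the gap required within each genotype, and 11 with all clusters of the members or after a second quantile normalization. The mean of the B cell list picks the same 2 arrays as *Ms4a1*, so that ordering by it could not change the count. With 1 ileum array left out, chosen after seeing the data, the count ranged from 11 to 15, and it cannot fall in this setting. Between tissues, testing only the clusters with a mean above the median of all clusters left 4 members called in KO and 4 in WT, since fewer members are tested there. With 1 array left out, the members called ranged from 16 to 22 in KO and from 12 to 17 in WT. No member was called between genotypes in the hippocampus, or in the difference between tissues, under any alternative run. No paired analysis was possible because the labels give no replicate numbers that the groups share. With 3 arrays per group and 10 members below the median of every ileum array, small differences of dim genes could not be resolved.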

Other observations

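Regulatory T cell genes other than *Foxp3* had no member that followed *Ms4a1*, as only 1.26% of all clusters did. Between lay 3 of them, where 5.42% of all clusters did. Of 7 measured, *Tnfrsf4*, which encodes the costimulatory receptor OX40, came closest with a gap of 0.50, just under the threshold, and read 4.81, 4.12 and 3.26 on F09, G09 and H09 (KO), against 3.33, 4.62 and 3.39 on C09, D09 and E09 (WT). *Lrrc32*, which encodes GARP, had the lowest gap, -2.19, with 5.42, 7.61 and 6.84 in KO and 6.42, 6.91 and 7.0 in WT. Of 7 measured genes of type 3 innate lymphoid cells and Th17 cells, 3 followed, the lymphotoxin genes *Ltb* (2.05) and *Lta* (0.81) and the chemokine receptor gene *Ccr6* (1.75), which B cells express too. The cytokine gene *Il17a* and the cytokine receptor gene *Il23r* did not follow, with gaps of -0.07 and -0.27. *Il17a* read 2.49 to 2.79 in the ileum and 2.57 to 3.12 in the hippocampus, so its gap is that of a gene without clear signal. None of these genes passed the test between genotypes in either tissue.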
